A study of Mus musculus with 69 samples.

Results

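A set of 10 genes of T lymphocytes and cytotoxic lymphocytes was followed in the lungs of mice exposed to nano-TiO2. They were chosen by symbol: a probe belonged to the group when the accession in its annotation matched Cd3d, Cd3e, Cd3g, Cd4, Cd8a, Lck, Cd28, Gzma, Gzmb or Prf1 in RefSeq. All 10 genes were measured, out of 18660 gene symbols tested, by 12 of the 41174 probes of the array. The mice were female C57BL/6, 5 to 7 weeks old at delivery and kept for a further 1 to 3 weeks before treatment. Each received 1 intratracheal instillation of NRCWE-025 or NRCWE-030, both titanium dioxide nanomaterials (NMs), at 18, 54 or 162 µg, or the vehicle alone, water with 2% serum. Lungs were taken on day 1 or day 28. This gave 14 groups of a material, dose and day, with 5 mice in each of 13 groups and 4 in the group given 162 µg of NRCWE-025 and examined on day 28. Both materials were compared with the same 5 vehicle controls of the day, so their differences from control are not independent of each other. Each of the 69 arrays carried RNA from a small piece of 1 lung, labelled with Cy5, against a commercial mixed mouse reference RNA labelled with Cy3. A level is given throughout as the log2 ratio of lung over reference, so that a difference of 1 is a 2-fold change. As the reference holds a different amount of each transcript, levels of different genes are not set against each other.

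The 7 T cell genes describe the receptor and its first steps. The T cell receptor recognises a peptide held by an MHC molecule but cannot signal alone: the CD3 chains encoded by Cd3d, Cd3e and Cd3g carry the signal into the cell. CD4 and CD8 are co-receptors that bind MHC class II and class I, and the kinase encoded by Lck rides on their tails and phosphorylates the CD3 chains. CD28 is the receptor for the second, co-stimulatory signal. The other 3 genes encode the contents of cytotoxic granules: perforin (Prf1) opens the way into a target cell, and granzymes A and B (Gzma, Gzmb) are the proteases that pass through. CD8 T cells and natural killer (NK) cells both use them, so the granule genes do not mark T cells alone. Resting lung contains T and NK cells in its tissue and in its capillaries. In a piece of whole lung, fewer cells of a type and less RNA per cell cannot be told apart.

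Promoter windows were at hand in RefSeq (build GRCm38.p6, 250 bases before and 50 after a start site) for 8 of the 10 genes, in 9 windows (2 of them for Lck). A choice of 4 is shown because these belong to 2 gene pairs whose levels moved together between mice, described further on: the CD3 pair Cd3d and Cd3g, whose start sites lie 1355 bases apart on opposite strands, and the granule pair Gzmb and Prf1. Capitals mark matches on either strand. The letters searched were TGTGGT, the core bound by RUNX factors, and GGAAGT, a core of ETS factors. The motif of the GATA family was searched as AGATAA, and that of the TCF and LEF factors was searched as CTTTGA.
Cd3d (chr9:44981536-44981835, plus strand): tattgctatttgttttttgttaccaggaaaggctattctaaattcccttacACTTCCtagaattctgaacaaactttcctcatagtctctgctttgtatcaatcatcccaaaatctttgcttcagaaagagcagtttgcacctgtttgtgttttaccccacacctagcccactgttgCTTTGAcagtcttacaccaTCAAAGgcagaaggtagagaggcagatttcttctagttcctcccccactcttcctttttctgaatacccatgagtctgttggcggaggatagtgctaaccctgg
Cd3g (chr9:44980382-44980681, minus strand): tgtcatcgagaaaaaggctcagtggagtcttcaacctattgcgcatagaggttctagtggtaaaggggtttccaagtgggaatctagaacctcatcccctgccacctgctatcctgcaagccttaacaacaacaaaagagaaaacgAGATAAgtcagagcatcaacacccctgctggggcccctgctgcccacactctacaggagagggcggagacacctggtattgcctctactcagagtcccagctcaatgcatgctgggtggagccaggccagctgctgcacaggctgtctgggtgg
Gzmb (chr14:56262285-56262584, minus strand): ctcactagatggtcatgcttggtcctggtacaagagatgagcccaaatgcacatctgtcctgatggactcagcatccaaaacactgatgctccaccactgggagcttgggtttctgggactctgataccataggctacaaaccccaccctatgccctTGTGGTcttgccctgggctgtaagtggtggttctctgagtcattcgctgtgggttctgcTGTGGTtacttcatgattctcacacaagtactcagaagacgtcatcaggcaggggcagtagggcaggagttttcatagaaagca
Prf1 (chr10:61297586-61297885, plus strand): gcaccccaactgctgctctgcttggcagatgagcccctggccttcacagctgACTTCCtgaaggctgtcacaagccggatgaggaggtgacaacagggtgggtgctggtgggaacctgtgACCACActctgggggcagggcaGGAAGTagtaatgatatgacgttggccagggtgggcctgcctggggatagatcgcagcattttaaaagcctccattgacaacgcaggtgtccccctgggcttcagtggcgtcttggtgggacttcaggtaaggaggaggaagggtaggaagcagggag
The RUNX core was matched in 4 of the 9 windows of these genes and in 16.8% of all 32851 promoter windows. The windows of Gzmb and Prf1 both held it, 2 times in Gzmb and 1 time in Prf1. The ETS core was matched in 5 of the 9 windows and in 23.8% of all windows, among them Cd3d and Prf1 but neither Cd3g nor Gzmb. AGATAA (11.2% of all windows) was matched in Cd3g alone of these genes, and CTTTGA (16.0% of all windows) in Cd3d alone, on each strand once. The cyclic AMP response element TGACGTCA (1.79% of all windows) had no match in the 9 windows. The Cd3d and Cd3g windows thus shared no matched motif, although their start sites are neighbours. These matches describe letters and say nothing about binding in these lungs.

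On single arrays 49.1% to 72.8% of spots, at the median 62.1%, were well above background for lung RNA, and 0 were saturated. The group given 162 µg of NRCWE-025 and examined on day 1 was the dimmest, at 55.4% ± 3.73 (SD, n = 5) against 61.5% ± 4.22 (SD, n = 5) in its controls. The 6 lung epithelial and endothelial marker genes averaged 4.73 to 5.91 above the reference on the log2 scale, as lung should. Of 5 thymocyte markers, only 1, Rag2, was not above background on any array. Another 2 were above background on many arrays, and the rest on fewer. Heart muscle genes averaged up to 5.02 on 1 day 1 control array, where the group's median was 1.11. The part of such tissue, or of thymus tissue, in the lymphocyte results was not tested.

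Of the 10 genes, 8 were well above background on 69 of 69 arrays by at least 1 probe. The exceptions were Cd4, well above background on 45 arrays, and Cd28, on 31. Cd28 was not well above background on any of the 5 arrays given 162 µg of NRCWE-025 on day 1 and on only 1 of their 5 controls, so its fitted difference there, which is kept among the tests, the plot and the medians, rests on signal not above background and is not given on its own. Both were read by a probe spotted 10 times on each array. For Cd4 the spread between mice of a group (pooled SD 0.0649) was smaller than the spread between the 10 single spots of an array (SD 0.123), of which the median was taken, and only 0.139% of all genes had a smaller spread between mice. Its levels ran from −0.11 to 0.18 over all arrays and its group means from −0.03 to 0.07.

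The other genes separated by how far mice of the same group differed. Prf1 and Gzma spread most: the pooled SD within groups was 0.420 for Prf1 and 0.410 for Gzma, where the median gene had 0.173, and 96.1% and 95.7% of all genes had a smaller SD. Lck (SD 0.366) and Gzmb (0.360) came next, above 93.5% and 93.1% of genes. From the lowest to the highest of the 69 lungs, Prf1 spanned 4.65-fold, Gzma 4.17-fold, Gzmb 3.61-fold and Lck 3.15-fold. Cd3g (SD 0.305), Cd3d (0.302) and Cd8a (0.287) lay close together, each above 84.9% to 87.6% of genes. Cd3e read differently from its partners in the complex, with an SD of 0.123 and a span of 1.45-fold. Each of these CD3 genes was read by 1 probe with 1 spot, and whether the probe or the transcript set this difference was not tested. The spread of Cd28 was 0.158.

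**Figure D1:**
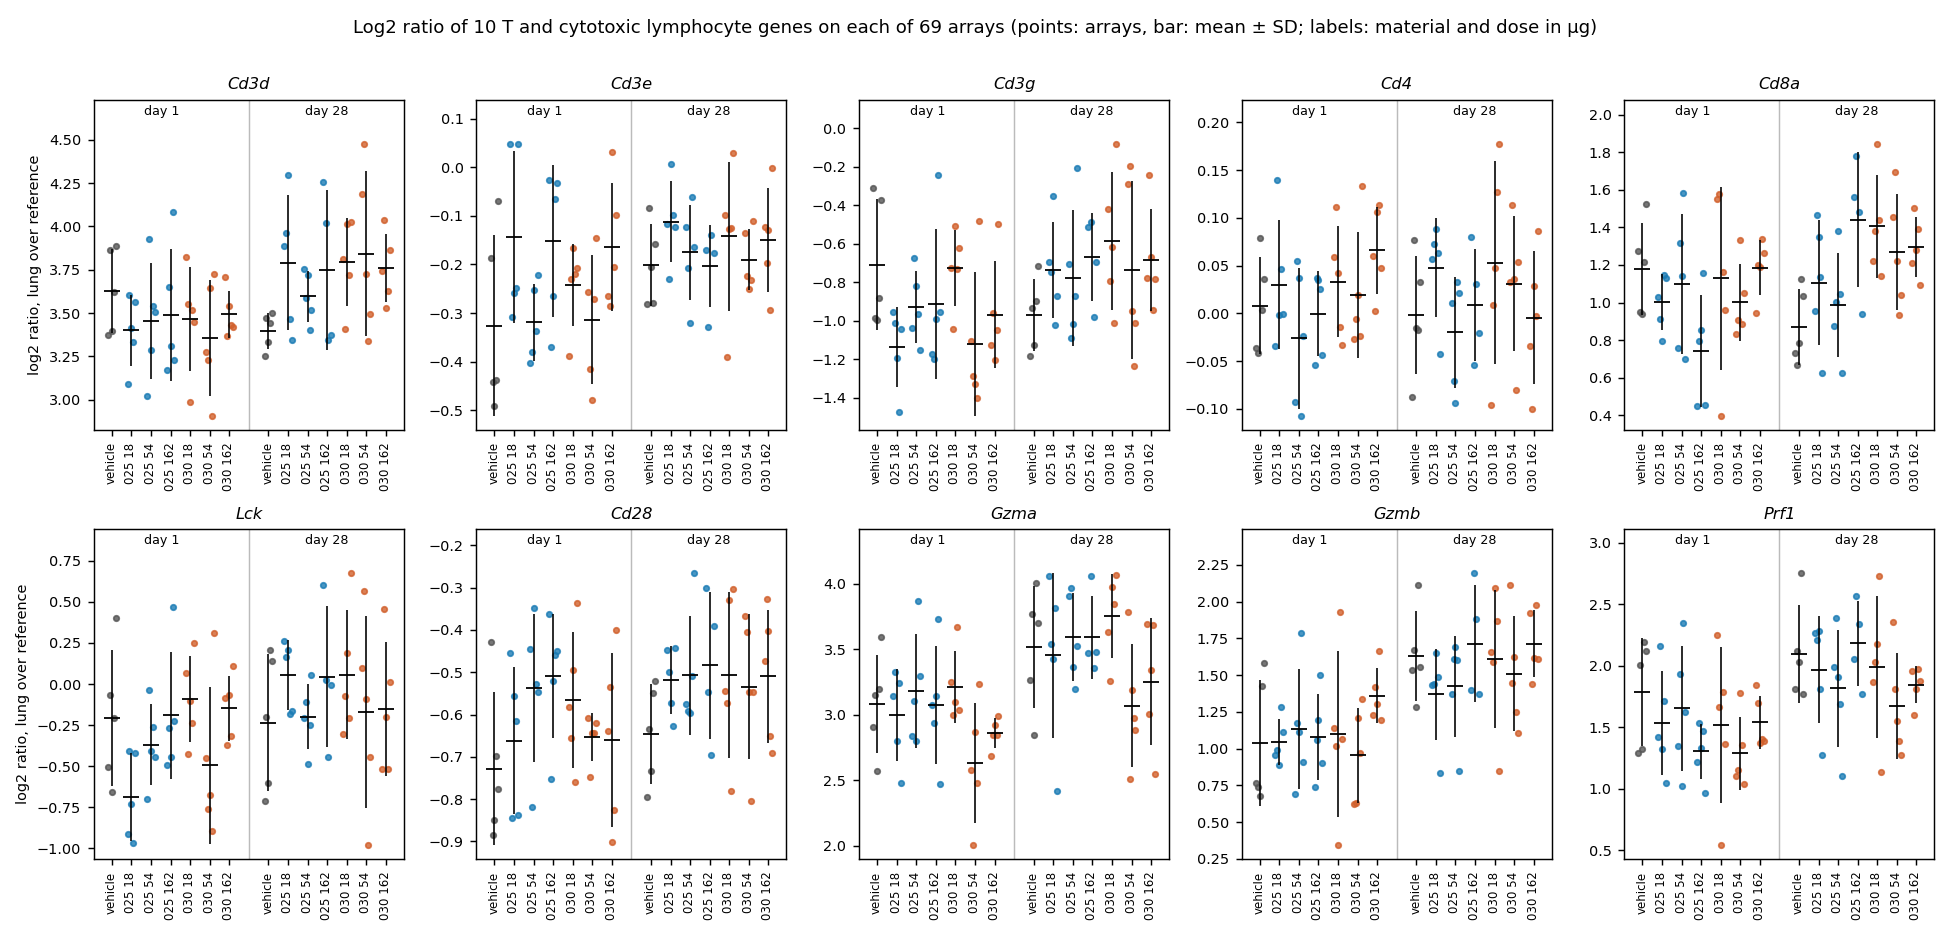
Log2 ratio of lung over reference for each of the 10 genes, 1 panel per gene with its own y axis; points are arrays, bars are group means ± SD, grey is vehicle, blue NRCWE-025 and orange NRCWE-030, with day 1 left of the line and day 28 right of it. The spread of points within a group was as wide as most steps between groups, and widest for Prf1 (pooled SD 0.420) and Gzma (0.410).

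The first question was whether either material, at any dose, moved these genes away from vehicle. None of the 10 genes passed an adjusted p of 0.05 in any of the 12 comparisons of a dose with its vehicle controls, nor in the 4 tests of a dose effect over all doses (limma, Benjamini-Hochberg over 18660 genes). The smallest adjusted p among the 120 tests was 0.165, for Cd8a. At an unadjusted p under 0.05 there were 13 of 120 (10.8%), 5 of 60 on day 1 and 8 of 60 on day 28. The 95% intervals of all 120 differences lay within −1.02 and 0.95 on the log2 scale, that is between 0.492-fold and 1.94-fold, and their median width to either side was 0.37. A rise above 1.94-fold or a drop below 0.492-fold was therefore outside every interval, and smaller changes of these genes lay within the widest of them. For Cd4 and Cd28 the intervals bound only the measured ratio. Their probes were often not above background, so a change of the transcript is not bounded.

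The background differed between comparisons. On day 1, the share of all genes called at the adjusted threshold was 0%, 0% and 0.209% after 18, 54 and 162 µg of NRCWE-025. For the same doses of NRCWE-030 it was 0.00536%, 0.0804% and 1.71%. On day 28 the shares after NRCWE-025 were 0.0589%, 0.0268% and 0.0161%, and after NRCWE-030 they were 0.118%, 0.0536% and 0.0965%. Even in the comparison with the most calls, 162 µg of NRCWE-030 on day 1, a list of 10 genes called at the background share would hold less than 1. At the unadjusted threshold, in the same order of doses, 2, 0 and 1 of the 10 genes passed after NRCWE-025 on day 1 (5.11%, 6.53% and 12.3% of all genes), while NRCWE-030 gave 0, 2 and 0 (7.29%, 8.75% and 12.9%). On day 28 the counts were 1, 0 and 1 after NRCWE-025 (8.86%, 7.08% and 7.23% of all genes), while NRCWE-030 gave 2, 2 and 2 (9.01%, 6.53% and 7.51%). In the tests over all doses, 0.0214% and 0.959% of all genes were called on day 1 for NRCWE-025 and, in turn, NRCWE-030, and 0.0375% and 0.102% on day 28. There, 0 and 1 genes passed unadjusted on day 1 (9.96% and 11.2% of all genes) and 1 and 1 on day 28 (5.77% and 7.07%). With 10 genes, 1 gene is 10%.

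**Figure D2:**
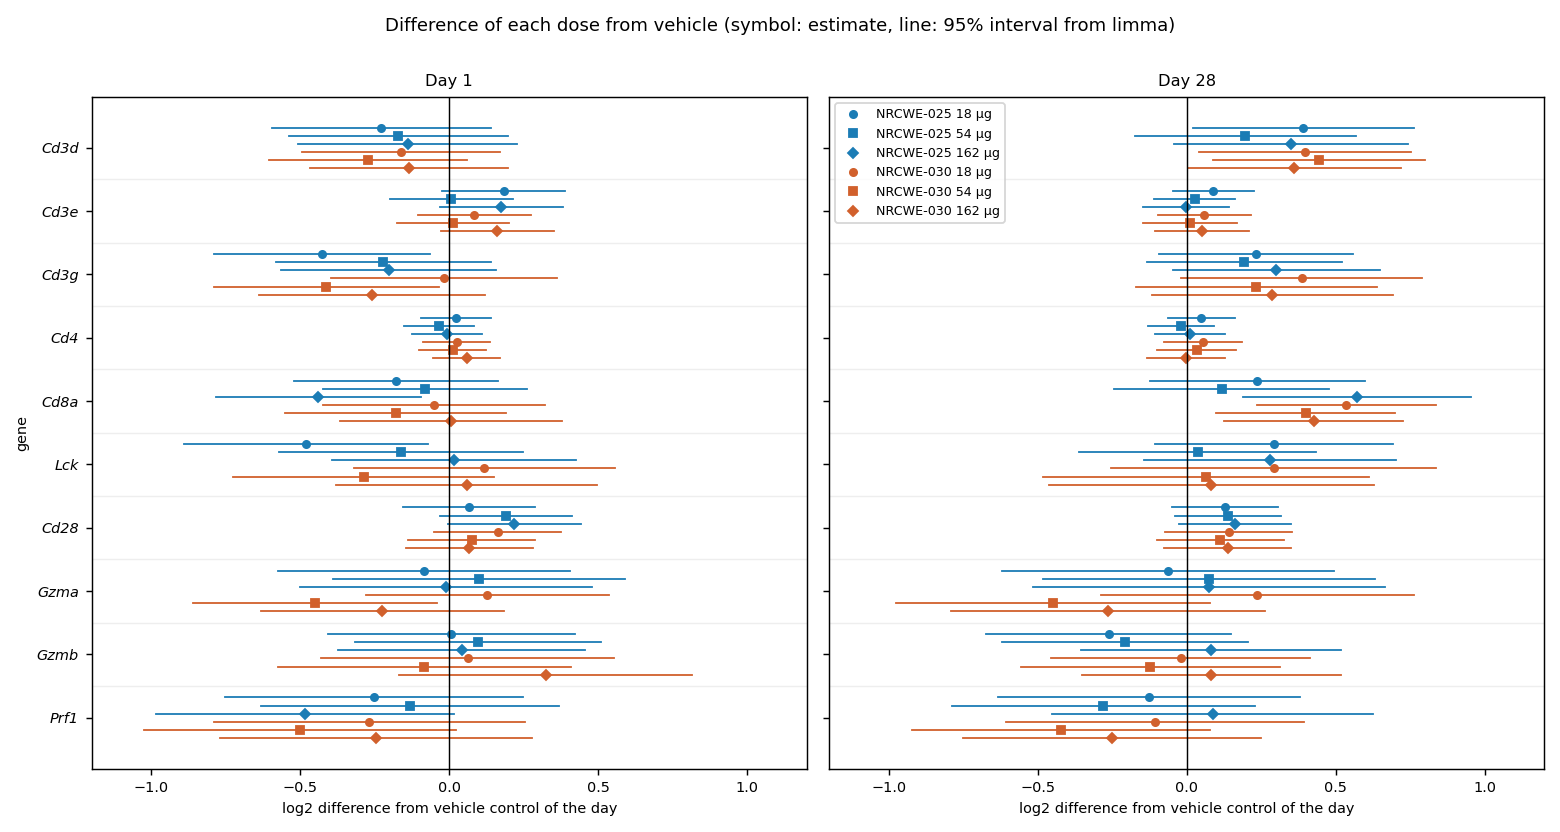
Log2 difference of each dose from the vehicle controls of the same day (x axis) for each gene (y axis), with 95% intervals from limma; blue is NRCWE-025, orange NRCWE-030, and circles, squares and diamonds are 18, 54 and 162 µg. On day 28 all 6 estimates lay above 0 for Cd3d, Cd3g, Cd8a, Lck and Cd28, and most of the 120 intervals included 0.

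Cd8a, the chain of the co-receptor that marks cytotoxic T cells, gave the smallest adjusted p of the 120 tests. On day 28 its levels in the 5 vehicle lungs were 0.73, 0.67, 0.78, 1.13 and 1.04. In the 5 lungs given 18 µg of NRCWE-030 they were 1.22, 1.38, 1.85, 1.44 and 1.14. Every treated lung lay above every vehicle lung, the lowest treated (1.14) just above the highest vehicle (1.13). Of all genes, 1.21% were separated in this way in this comparison. The difference was 0.54 ± 0.14 (log2, SE; 95% interval 0.24 to 0.84) with an adjusted p of 0.165 from limma. With array weights it was 0.63 (adjusted p = 0.0347, limma), where 133 of all genes were called instead of 22, and with the ratio computed by the scanner software 0.06. At 54 µg the levels were 1.46, 1.70, 1.22, 0.93 and 1.04, and at 162 µg 1.21, 1.50, 1.28, 1.39 and 1.09. Both groups overlapped the vehicle lungs, with differences of 0.40 ± 0.14 and 0.43 ± 0.14 and adjusted p of 0.602 and 0.451 from limma. After 162 µg of NRCWE-025 the 4 lungs read 1.56, 1.78, 1.48 and 0.94. Of these, 3 were above all vehicle lungs and 1 was among them, for a difference of 0.57 ± 0.18 (95% interval 0.19 to 0.95; adjusted p = 0.481, limma).

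On day 1 the vehicle lungs read 1.28, 0.95, 0.94, 1.22 and 1.52 for Cd8a. They stood higher than on day 28 only by the probe that set the level of the gene, as given further on. After 162 µg of NRCWE-025 the lungs read 0.45, 0.80, 0.85, 1.16 and 0.45. Of the 5, 4 lay below every vehicle lung and 1 lay among them. The difference was −0.44 ± 0.16 (95% interval −0.78 to −0.10; adjusted p = 0.257, limma). This was the dimmest group of the study, and its lungs also read lower for fat markers (median of the list 0.985, against 2.23 in vehicle) and heart muscle markers (0.708 against 1.11). The part of brightness and of such tissue in the Cd8a difference was not tested. After the same dose of NRCWE-030 the 5 lungs spanned 0.94 to 1.34, wholly within the range of vehicle.

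Which probe was read mattered for Cd8a. The array has 3 probes for it, and the median over them, used as the level of the gene, was the value of the probe with 10 spots (A_52_P443334) on 69 of 69 arrays. A_51_P345121, a single spot read on the same transcript accession and well above background on all 69 arrays, gave smaller differences: 0.27 ± 0.17 in place of 0.54 for 18 µg of NRCWE-030 on day 28, 0.29 ± 0.13 in place of 0.57 for 162 µg of NRCWE-025 on day 28, and −0.11 ± 0.17 in place of −0.44 for that dose on day 1. A_52_P150547, assigned to another Cd8a accession and well above background on 38 arrays, gave −0.10 ± 0.10 for 18 µg of NRCWE-030 and −0.07 ± 0.09 for 162 µg of NRCWE-025 on day 28, the opposite sign of the other probes. By A_51_P345121 the lungs given 18 µg of NRCWE-030 on day 28 overlapped vehicle, with a lowest treated level of 1.82 and a highest vehicle level of 1.92. Over the 69 arrays, deviations from the group mean correlated at r = 0.569 between the 2 well detected probes, and at 0.453 and 0.426 with the dim one. These are correlations within the same arrays and are given as a description.

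**Figure D3:**
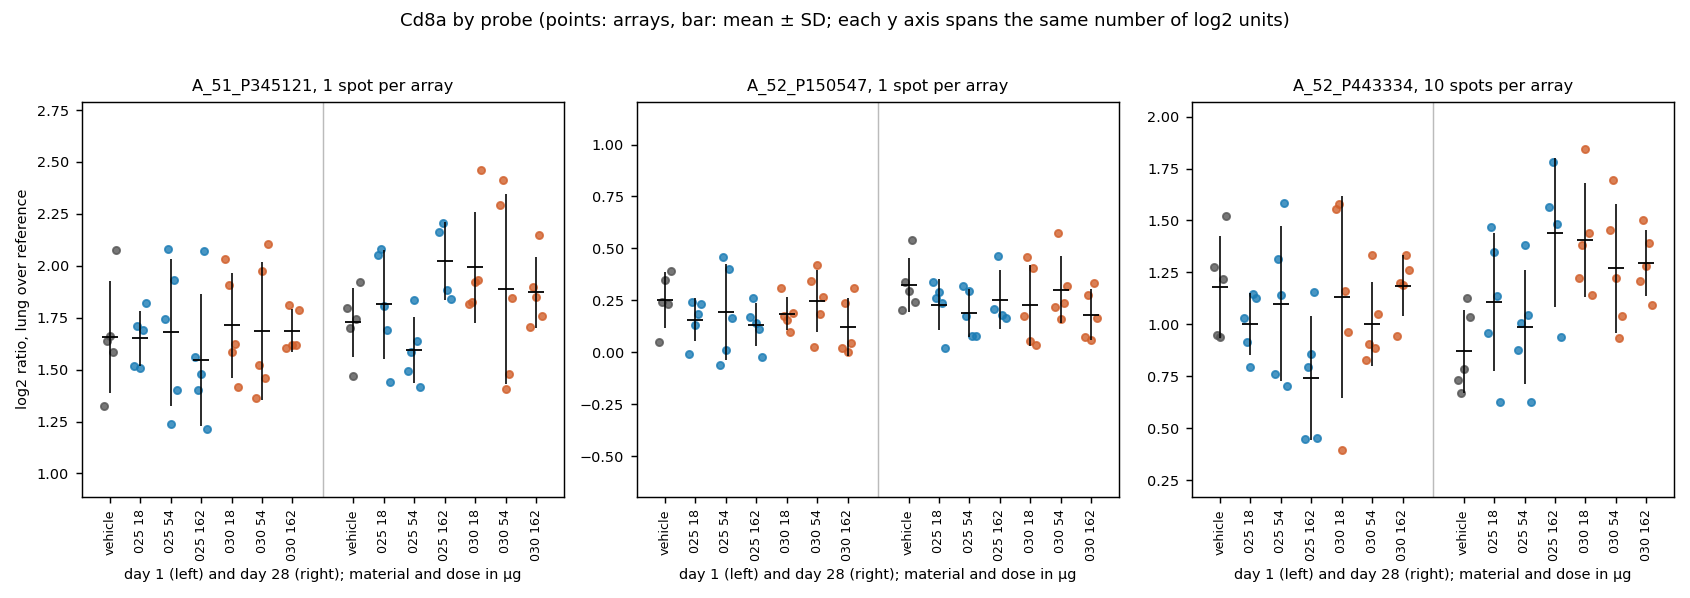
Log2 ratio of lung over reference for the 3 Cd8a probes, 1 panel each, all spanning the same number of log2 units; points are arrays, bars are group means ± SD, with day 1 left of the line and day 28 right of it. The step from vehicle to 18 µg of NRCWE-030 on day 28 was 0.54 for the probe with 10 spots, 0.27 for A_51_P345121 and −0.10 for A_52_P150547.

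Cd3d, which encodes the delta chain of CD3, lay above vehicle on day 28 at every dose of both materials, by 0.20 to 0.44. The vehicle lungs were closely grouped at 3.25, 3.47, 3.33, 3.44 and 3.50. The lungs given 162 µg of NRCWE-030 read 3.74, 4.03, 3.53, 3.63 and 3.87, all above vehicle, as 1.09% of all genes did in this comparison. The difference was 0.36 ± 0.17 (95% interval 0.00434 to 0.72; adjusted p = 0.660, limma). At 54 µg the lungs were spread wider, at 4.18, 4.48, 3.72, 3.34 and 3.49, and at 18 µg they read 3.81, 3.41, 4.01, 3.72 and 4.03. The differences there were 0.44 ± 0.17 and 0.40 ± 0.17, with adjusted p of 0.658 and 0.485 from limma, and both groups overlapped vehicle. After 18 µg of NRCWE-025 the levels were 3.89, 3.96, 4.30, 3.47 and 3.34, a difference of 0.39 ± 0.18 (adjusted p = 0.528, limma). With the local background left as deposited, the estimates for 18 µg of NRCWE-025 and 54 µg of NRCWE-030 on day 28 turned to −0.000133 and −0.0400. On day 1 Cd3d lay below vehicle in all 6 comparisons, by 0.14 to 0.27, with no unadjusted p under 0.05.

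Cd3g, the gamma chain, showed the same order on the 2 days: below vehicle in 6 of 6 comparisons on day 1 (−0.43 to −0.02) and above it in 6 of 6 on day 28 (0.19 to 0.39). As the 6 comparisons of a day share 5 vehicle lungs, such counts are not 6 independent observations. On day 1 the vehicle levels were −0.31, −0.98, −0.996, −0.88 and −0.37, and those after 18 µg of NRCWE-025 −0.95, −1.01, −1.19, −1.47 and −1.04. Of the vehicle lungs, 3 lay above all treated lungs and the other 2 among them. The difference was −0.43 ± 0.17 (95% interval −0.79 to −0.07; adjusted p = 0.971, limma). After 54 µg of NRCWE-030 the levels were −1.11, −1.29, −1.33, −1.40 and −0.48, with 4 of 5 below all vehicle lungs and a difference of −0.41 ± 0.18 (adjusted p = 0.513, limma).

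Cd3e, the epsilon chain, stayed between −0.49 and 0.05 on all 69 arrays. Its differences from vehicle ran from 0.01 to 0.18 on day 1 and from −0.00214 to 0.09 on day 28. Its intervals were among the narrowest of the group, none wider than 0.207 to either side on day 1. For Cd4 the differences ran from −0.03 to 0.06 over both days.

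Lck, the kinase that starts signalling from the receptor, was lowest on day 1 after 18 µg of NRCWE-025, at −0.91, −0.41, −0.73, −0.97 and −0.42. Its vehicle lungs read −0.50, −0.07, −0.66, −0.21 and 0.40. The groups overlapped, and the difference was −0.48 ± 0.20 (95% interval −0.89 to −0.07; adjusted p = 0.971, limma). On day 28 the estimates for Lck lay between 0.04 and 0.29 above vehicle, with no unadjusted p under 0.05. Its vehicle lungs of that day read −0.71, −0.20, −0.60, 0.20 and 0.14, a span wider than any of these differences. Cd28 lay above vehicle in all 6 comparisons of day 28, by 0.11 to 0.16, again with none passing. Its probe was well above background on only 3 vehicle arrays of that day. In the treated groups this ranged from 1 array (54 µg of NRCWE-025) to 5 (162 µg of NRCWE-030), so these differences rest in part on signal not above background.

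Prf1, which encodes perforin, lay below vehicle in 6 of 6 comparisons on day 1, by 0.13 to 0.50, and in 5 of 6 on day 28. On day 1 its vehicle lungs read 1.29, 2.01, 1.33, 2.19 and 2.12, in a low and a high cluster. The lungs given 162 µg of NRCWE-025 read 1.22, 1.53, 1.33, 1.47 and 0.97, and those given 54 µg of NRCWE-030 1.104, 1.15, 1.78, 1.35 and 1.04. Both groups lay below the 3 highest vehicle lungs and overlapped the 2 lowest, and no Prf1 difference passed the unadjusted threshold on either day.

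Gzma, granzyme A, was lowest after 54 µg of NRCWE-030 on both days. On day 1 those lungs read 2.58, 2.00, 2.87, 2.48 and 3.23 against vehicle lungs of 2.90, 3.15, 2.57, 3.20 and 3.59. The difference was −0.45 ± 0.20 (95% interval −0.86 to −0.04; adjusted p = 0.507, limma). On day 28 they read 3.79, 2.51, 3.19, 2.97 and 2.88 against 3.26, 3.77, 2.84, 4.01 and 3.70, a difference of −0.45 whose interval included 0. At 18 and 162 µg of the same material the Gzma estimates were 0.13 and −0.22 on day 1 and 0.24 and −0.26 on day 28, so the values did not follow dose. Gzmb, granzyme B, differed from vehicle by −0.08 to 0.32 on day 1 and by −0.26 to 0.08 on day 28. No Gzmb difference passed the unadjusted threshold.

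As a group, the median of the 10 differences stood at −0.13, −0.06 and −0.01 after 18, 54 and 162 µg of NRCWE-025 on day 1. After the same doses of NRCWE-030 it was 0.04, −0.23 and 0.03. On day 28 it stood at 0.11, 0.06 and 0.12 after NRCWE-025, and NRCWE-030 gave 0.19, 0.05 and 0.08. The median over all genes was between −0.01 and 0.01 in each of these comparisons. Split by role, the 7 receptor and co-receptor genes had medians of 0.11 to 0.29 on day 28, with 6 or 7 of 7 above vehicle at every dose. These counts include Cd4 and Cd28, which were often not above background. The 3 granule genes had medians of −0.42 to 0.08. The medians of the 10 differences depended on single arrays and on slide. On day 1, blocked by slide or by scan day, those of 18 and 162 µg of NRCWE-030 were −0.159 or −0.205 and −0.188 or −0.162, and leaving out single arrays moved that of 162 µg of NRCWE-025 from −0.16 to 0.06. On day 28, leaving out single arrays moved the median of 54 µg from 0.00230 to 0.15 for NRCWE-025 and from 0.00149 to 0.12 for NRCWE-030. For 162 µg of NRCWE-025 on day 28 the scanner's own log ratio gave 0.375.

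Whether the 2 materials differed was asked at each matched dose, in 6 comparisons of 10 genes, with p-values adjusted over all genes of a comparison. NRCWE-025 and NRCWE-030 are code names, and no structural difference between them is drawn on here. No gene passed an adjusted p of 0.05 in these, nor in the 2 tests over all doses of a day (limma). Of all genes, 0.0482%, 0.0589% and 0% were called at 18, 54 and 162 µg on day 1 and 0%, 0.0804% and 0.0161% on day 28, and 0.161% and 0.236% over all doses. At the unadjusted threshold 5 of the 60 passed. On day 1 these were Lck (0.60 ± 0.23 higher after NRCWE-030) and Cd3g (0.41 ± 0.19 higher) at 18 µg, where 8.80% of all genes passed, Gzma at 54 µg (−0.55 ± 0.25, 5.78% of genes) and Cd8a at 162 µg (0.44 ± 0.18, 6.14% of genes). On day 28 it was Gzma at 54 µg (−0.52 ± 0.25, 7.89% of genes), and 0 of the 10 genes passed at 18 and 162 µg (6.62% and 2.45% of genes). Over all doses 0 passed unadjusted on either day (7.78% and 6.28% of genes). The Lck levels after 18 µg of NRCWE-030 were 0.07, −0.43, −0.10, −0.24 and 0.25, overlapping those after NRCWE-025 given above. The 95% intervals of the 60 differences lay within −1.05 and 1.05 (0.482-fold to 2.07-fold), so neither a like nor an unlike response below that size was shown.

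The change from vehicle at 162 µg was also compared between day 1 and day 28. For Cd8a after NRCWE-025 the change from vehicle was −0.44 on day 1 and 0.57 on day 28. The difference between them was −1.01 ± 0.26 (95% interval −1.53 to −0.49; adjusted p = 0.0867, limma). It missed the adjusted threshold, which 0.0589% of all genes passed. At the unadjusted threshold, which 10.5% of all genes passed, Cd8a was the only 1 of the 10 genes below it. With slide as a random block the difference was −1.10 (adjusted p = 0.0168, limma), with slide as a fixed block −1.23 (adjusted p = 0.0153), with scan day as a block −0.94 (adjusted p = 0.0416) and with array weights −1.09 (adjusted p = 0.00884). Under these 4 settings 129, 197, 205 and 156 of all genes were called, instead of 11. With the mean over the 3 probes it was −0.49 (adjusted p = 0.264), and A_51_P345121 alone gave −0.41 ± 0.24 and A_52_P150547 −0.05 ± 0.13. The call thus went both ways with the handling of slides and probes, and leaving out any single array of the 69 gave −1.18 to −0.90 and adjusted p of 0.0581 to 0.242 without a call. After NRCWE-030, where 0.198% of all genes passed the adjusted and 7.66% the unadjusted threshold, only Cd3g had an unadjusted p under 0.05, with a difference of −0.55 ± 0.27 (adjusted p = 0.631, limma).

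Between the 2 vehicle groups no gene passed the adjusted threshold (limma; 0.0375% of all genes did), and 1 passed unadjusted (8.55% of all genes). This was Gzmb, at 0.77, 0.74, 0.68, 1.43 and 1.58 on day 1 and at 1.54, 1.67, 1.28, 2.11 and 1.55 on day 28, higher on day 28 by 0.59 ± 0.22 (95% interval 0.15 to 1.04; adjusted p = 0.407). The groups overlapped, and with slide as a fixed block the difference was −0.397. In that fit the days are linked by 1 slide alone, the only one with arrays of both days (2 of day 1 and 1 of day 28, none of them vehicle), and 1381 of all genes were called under it, Cd3e among them, instead of 7. The other granule genes also had higher means on day 28, Gzma by 0.43 ± 0.25 and Prf1 by 0.31 ± 0.26. Cd8a, Cd3g and Cd3d had lower ones, by −0.31 ± 0.18, −0.26 ± 0.19 and −0.23 ± 0.19. For Cd8a this was the reading of the probe with 10 spots. The other Cd8a probes were higher on day 28, A_51_P345121 by 0.07 ± 0.16 and A_52_P150547 by 0.07 ± 0.09. The differences from vehicle of Cd8a, Cd3g and Cd3d had the opposite sign on the 2 days in most comparisons, and both rest on these 10 vehicle lungs.

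Other genes of the same pathways were read from lists. On day 1, 0.209% of all genes were called after 162 µg of NRCWE-025 and 1.71% after 162 µg of NRCWE-030. Of 18 tested genes that act after the T cell receptor, such as the kinases and adaptors next to Lck, 1 rose after 162 µg of NRCWE-025 on day 1: Lcp2, the adaptor SLP-76, by 0.50 ± 0.10 (adjusted p = 0.0354, limma). After 162 µg of NRCWE-030 on day 1, 1 of 18 rose, the exchange factor gene Vav1, by 0.62 ± 0.16 (adjusted p = 0.0478). Both proteins also work in myeloid cells. Of 23 further T cell identity genes, 0 passed in any dose comparison, and Ctla4 and Cd40lg were not above background on any array. Of 19 NK and cytotoxic effector genes, 0 passed. Of 12 genes for granule release and its control, Ctsc, which encodes the protease that activates granzymes and also neutrophil proteases, rose by 0.91 ± 0.19 after 162 µg of NRCWE-030 on day 1 (adjusted p = 0.0154). Of 14 ligand and cytokine genes for T and NK cells, 2 rose in the same comparison: Cxcl9, a chemokine that draws activated T cells, by 0.99 ± 0.19 (adjusted p = 0.00914) and Ccl19, a chemokine for naive T cells and dendritic cells, by 0.92 ± 0.21 (adjusted p = 0.0306). The 10 lymphocyte genes themselves did not pass in that comparison. Of 6 neutrophil markers, 2 rose there too, Il1r2 by 1.36 ± 0.19 (adjusted p = 0.00111) and Csf3r by 1.25 ± 0.20 (adjusted p = 0.00261, limma). The other neutrophil markers were not called. The mean over all 6 ran from 2.67 to 3.35 with a median of 2.89, against 2.22 to 2.68 and 2.55 in vehicle. Of 12 B cell markers 1 fell, Cd22, by 0.39 ± 0.10 (adjusted p = 0.0499), and of 5 fat markers 1 fell, Cidec, by 1.36 ± 0.31 (adjusted p = 0.0306). The part of neutrophils, other myeloid cells or lymphocytes in the rise of Lcp2, Ctsc and Vav1 was not tested.

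On day 28 none of these list genes passed at any dose. After 18 µg of NRCWE-030, 16 of 18 receptor signalling genes, 18 of 23 other T cell genes and 16 of 19 NK genes lay above vehicle, with medians of 0.17, 0.19 and 0.12 against −0.000124 over all genes. All 12 B cell markers did so as well, with a median of 0.18. The medians of these lungs were lower for heart muscle markers (0.862, with a range of 0.800 to 2.29, against 2.56 and 1.59 to 3.57 in vehicle) and neutrophil markers (2.54 against 3.16) and higher for macrophage markers (4.21 against 3.70), and the part of such cells in these differences was not tested. After 162 µg of NRCWE-025 the counts were 15 of 18, 19 of 23, 14 of 19 and, for B cell markers, 10 of 12, with medians of 0.19, 0.22, 0.20 and 0.19. In the other day 28 comparisons the medians of the signalling and other T cell lists lay between 0.02 and 0.15. The NK list had medians of −0.01 and −0.04 after 18 and 54 µg of NRCWE-025 and of 0.02 and 0.12 after 54 and 162 µg of NRCWE-030. On day 1 after 162 µg of NRCWE-025, where Cd8a was lower, 16 of 23 other T cell genes and 11 of 12 B cell markers lay below vehicle, with medians of −0.07 and −0.25, and 1 of the 12 lay above. Levels of the B cell list ran from 0.57 to 1.55 with a median of 0.62 in the day 28 vehicle lungs and from 0.92 to 1.21 with a median of 1.14 after 18 µg of NRCWE-030. The T cell list ran from 0.271 to 0.453 and from 0.455 to 0.628 in the same groups. Genes of a list are not independent of each other, and these counts and medians are a description.

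Covariation between mice of the same group was examined next. For each pair of the 10 genes, deviations from the group means were correlated over the 69 arrays, with 100000 shuffles of arrays within groups and Benjamini-Hochberg adjustment over the 45 pairs. Of these pairs, 21 had an adjusted permutation p under 0.05 for Pearson's r, 19 positive and 2 negative, and 18 of the 21 also for Spearman's rho. The median r was 0.231, and 9 pairs had r over 0.5. Against all well detected genes, the median r of each of the 10 genes lay between −0.0353 (Cd28) and 0.0406 (Cd4). Single genes outside the 10 reached r as high or higher, as given further on. The share of called pairs among pairs of all genes was not computed, so 21 of 45 is not shown to be particular to these genes.

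One set of genes joined the receptor to its kinase. Cd3g and Lck correlated at r = 0.745 (rho = 0.686, adjusted permutation p = 9e-05, n = 69), and Cd3d and Lck at r = 0.715 (rho = 0.689, adjusted permutation p = 9e-05). The p of 9e-05 stems from the smallest that the shuffles can give, 1e-05. Without the 2 arrays farthest from the median on the x axis these r were 0.698 and 0.667, and with slide means removed as well they were 0.813 and 0.867. Cd3d and Cd3g, the neighbours whose promoters are shown above, correlated at r = 0.511 (rho = 0.446, adjusted permutation p = 0.000945), or 0.425 without 2 arrays and 0.695 with slide removed. Cd28 went with Cd3g at r = 0.544 (rho = 0.546, adjusted permutation p = 0.00015), 0.575 without 2 arrays and 0.786 with slide removed. The Cd28 probe was well above background on only 31 of the 69 arrays.

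A second set joined the granule genes to Cd8a. Gzmb and Prf1, the other pair with printed promoters, correlated at r = 0.712 (rho = 0.675, adjusted permutation p = 9e-05), 0.699 without 2 arrays and 0.838 with slide removed. Cd8a correlated with Gzmb at r = 0.689 (rho = 0.687, adjusted permutation p = 9e-05) and with Prf1 at r = 0.588 (rho = 0.517, adjusted permutation p = 0.000337), and these were 0.649 and 0.523 without 2 arrays and 0.630 and 0.557 with slide removed. Gzma correlated with Gzmb at 0.578 (rho = 0.581, adjusted permutation p = 9e-05) and with Prf1 at 0.492 (rho = 0.505, adjusted permutation p = 0.0004), 0.526 and 0.421 without 2 arrays and 0.683 and 0.726 with slide removed. Between the sets, Cd3d and Cd8a correlated at r = 0.594 (rho = 0.550, adjusted permutation p = 0.000193), 0.547 without 2 arrays and 0.649 with slide removed. Lck and Gzmb had r = 0.118 over group deviations and 0.442 with slide removed, and Cd3g and Cd8a 0.201 and 0.580, so how far apart the sets lay depended on whether slide was taken out.

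Cd3e correlated with Cd3g at r = 0.384 (rho = 0.356, adjusted permutation p = 0.0134), 0.349 without 2 arrays and 0.230 with slide removed. Its r with Cd3d, its partner in the receptor, was −0.00101, or 0.262 with slide removed, and with Prf1 it was −0.341 (rho = −0.358, adjusted permutation p = 0.0223), or −0.0806 with slide removed. The 2 negative pairs, Cd3e with Prf1 and Cd28 with Prf1 (r = −0.313, 0.0376 with slide removed), were thus near 0 once slide was taken out, while 20 of the 21 pairs kept their sign. All 21 kept it without the 2 farthest arrays.

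**Figure D4:**
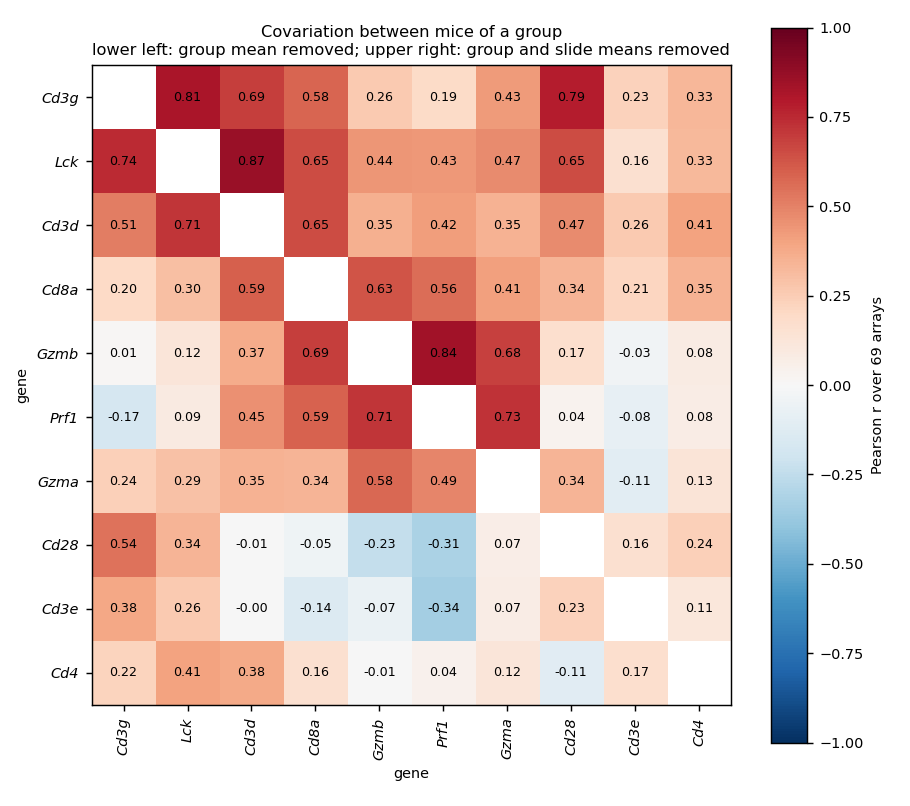
Pearson r between the 10 genes (both axes) over 69 arrays, as colour and number; the lower left triangle is from deviations from group means and the upper right triangle from deviations from group and slide means. The receptor genes with Lck (r = 0.745 for Cd3g, 0.715 for Cd3d) and the granule genes with Cd8a (0.689 with Gzmb) are high in both triangles, and Cd3e and Cd4 are low against most genes.

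The genes also moved with those of other lymphocytes. Against the mean of the 19 NK and cytotoxic effector genes, r was 0.763 for Gzmb, 0.744 for Cd3d, 0.736 for Cd8a, 0.726 for Prf1, 0.693 for Gzma and 0.473 for Lck. Against the mean of the 12 B cell markers it was 0.729 for Cd3d, 0.662 for Lck, 0.640 for Cd8a, 0.522 for Prf1, 0.457 for Cd3g and 0.400 for Gzmb. Cd3d correlated with the 6 neutrophil markers at only 0.380. These lists were set against the genes after their values were known, arrays share slides, and the r are given as a description. A lung piece that read high for Cd3d also tended to read high for B and NK cell genes.

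**Figure D5:**
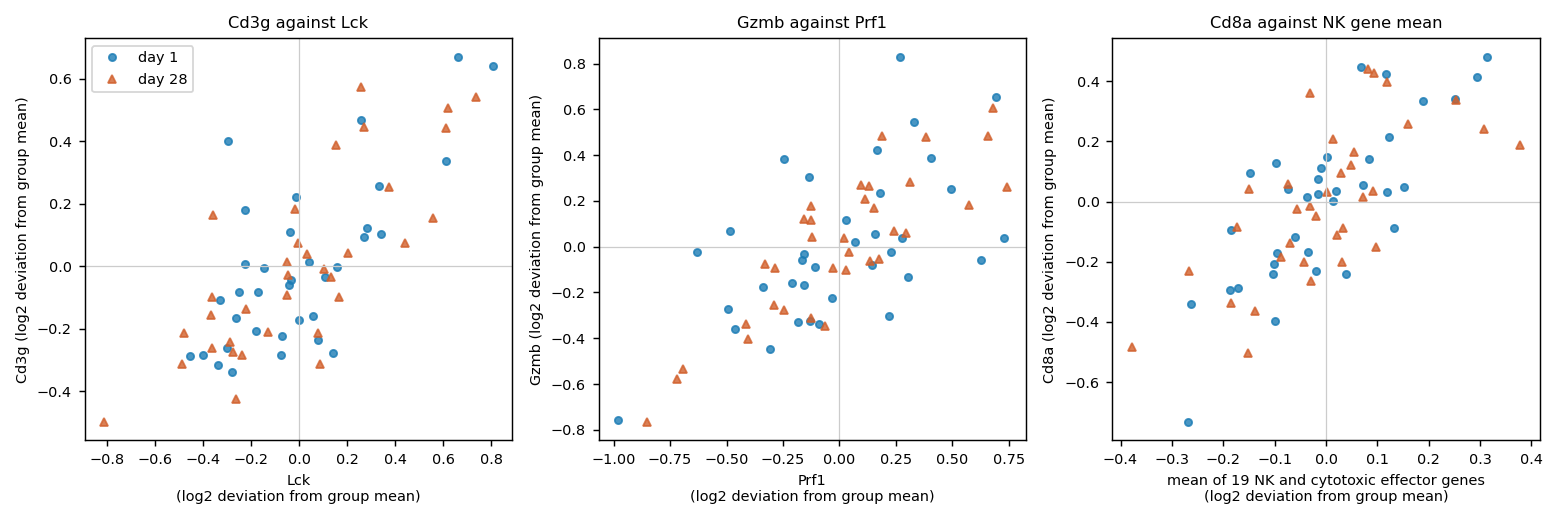
Deviations from the group mean (log2) of 69 arrays for Cd3g against Lck, Gzmb against Prf1 and Cd8a against the mean of 19 NK and cytotoxic effector genes; blue circles are day 1 and orange triangles day 28. Points of both days lie along one rising band in each panel, with r of 0.745, 0.712 and 0.736.

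Over all 18660 tested genes, the 5 most like each of these genes by the same r were sought among those well above background on 35 or more of the 69 arrays (13702 candidates for Cd3d). For Cd3d they were Cd52 (r = 0.873), a surface glycoprotein of lymphocytes, Ptprcap (0.793), Fcmr (0.789), Ifng (0.785) and Was (0.781). For Lck they were Rasal3 (0.889), Itgb7 (0.882), Vav1 (0.841), Ptprcap (0.838) and Bcl11b (0.825), and for Cd3g Rhoh (0.784), Cd5 (0.779), Rasal3 (0.758), Lck (0.745) and Lat (0.740). For Cd8a they included Traf3ip3 (0.827), Dapl1 (0.810) and Satb1 (0.810), with Gm11346 and Zfp831 after them.

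For Gzma the nearest genes were Nkg7 (0.745), Klra8 (0.727) and Ccl5 (0.706), then Klra9 and Klrb1c, where the Klra genes are close copies of each other whose probes may share signal. For Gzmb they were Gbp4 (0.803), Tbx21 (0.774) and Klrb1c (0.773), then Rnase6 and Klra7, and for Prf1 Ciita (0.792), Zcchc18, Cgnl1, Tbx21 (0.743) and Aftph. Tbx21 encodes the transcription factor T-bet of type 1 lymphocytes.

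Cd28, Cd3e and Cd4 found other neighbours. For Cd28 they were Tox (0.791), Plau (0.790), Bora, Fubp1 and Glmn, and for Cd3e Car9 (0.714), Cmtm4, Vps37d, Cyp2c55 and Knstrn, none of them a gene of the T cell receptor. For Cd4 the highest r was only 0.567, with B3galt4, followed by Def8, 3930402G23Rik, Dtnbp1 and Olfr906. The probes of Cd28 and Cd4 are those that were often not above background, and that of Cd3e had the smallest spread between mice after Cd4.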

How the data were processed

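Lung RNA (Cy5) and Universal Mouse Reference RNA (Cy3) were hybridised to 2-colour Agilent 4x44K arrays without dye swap. The deposited scanner files of the authors (Feature Extraction 11.0.1.1, build mm9 per the file headers) hold median intensity and local background of 45018 spots. As deposited by the authors, these files also hold a log10 ratio computed by the scanner software, Feature Extraction, used as an alternative. The deposited series matrix holds log2 ratios, used as another alternative. Its median r was 0.996 with loess values without background correction, not with the normexp values used here. The lowest r was 0.922 (slope 0.865), on replicate 5 of 18 µg of NRCWE-030 on day 28. Columns of outlier and saturation flags were used as filters. Here, marked background outliers (1.26% to 2.06% of spots) were replaced by the array's median, followed by normexp (offset 50), loess within arrays, the median over spots and then over probes of a symbol. Of 41174 probes, 66.8% had a RefSeq symbol. limma 3.58.1 in R 4.3.3 fitted each material and day with its controls, and all 14 groups together for materials, days and vehicle, with Benjamini-Hochberg adjustment over 18660 genes and a threshold of 0.05. The fits were tested on simulated data. Correlations used Python 3.11.15. Replicates are separate mice, numbered in accession order, and their number limits precision. The main fits held no block, and slide (19) and scan day (11) were tried as blocks. All 10 genes are named, with list genes past the threshold and the 5 genes most like each. Members and lists were chosen with earlier results of these data known.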

Additional observations from a re-analysis of the deposited data

Results flagged for a closer look

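In 8 of 140 combinations of a gene and a group (5.71%), 1 array lay far from the others of its group by Dixon's test, which flags about 1 in 20 groups by chance. In the group given 162 µg of NRCWE-025 on day 1, replicate 4 read −0.24 for Cd3g, where the others read −1.196 to −0.95, and 0.47 for Lck, where the others read −0.49 to −0.23. In the group given 18 µg of NRCWE-025 on day 28, replicate 5 read 0.84 for Gzmb (others 1.43 to 1.65) and −0.0426 for Cd4 (others 0.06 to 0.09). Gzma read 4.06 in replicate 2 of 162 µg of NRCWE-025 on day 28, above 3.36 to 3.48 in the others. Cd28 read −0.27 in replicate 5 of 54 µg of NRCWE-025 on day 28 (others −0.60 to −0.51) and −0.75 in replicate 2 of 54 µg of NRCWE-030 on day 1 (others −0.64 to −0.61). Cd3e read −0.39 in replicate 1 of 18 µg of NRCWE-030 on day 1 (others −0.23 to −0.17).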

How the results depend on the processing

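In all, 15 alternatives were run, besides leaving out each of the 69 arrays, which called 0 of the 10 genes in any comparison. The count of genes called went from 0 to 1 for 18 µg of NRCWE-030 on day 28 with array weights (Cd8a, 0.63, adjusted p = 0.0347, limma; over the alternatives adjusted p ran to 0.985 and the difference from 0.06 with the scanner's own log ratio to 0.67 with slide as a fixed block), for the Cd8a difference between days after NRCWE-025 with array weights, slide as a random or fixed block or scan day, and for vehicle with slide as a fixed block (Cd3e). Calls over all 18660 genes were then 133 instead of 22, 129 to 205 instead of 11, and 1381 instead of 7. The Gzmb difference between vehicle groups was −0.397 with slides as fixed blocks. With backgrounds as deposited, Cd3d was −0.000133 (18 µg of NRCWE-025) and −0.0400 (54 µg of NRCWE-030) on day 28. With slide removed, r was 0.474 for Cd3d and Cd28, 0.337 for Cd8a and Cd28, and 0.0376 for Cd28 and Prf1, each negative before. Pairs that passed were 28 instead of 21 with slide removed, and 19 without the 2 farthest arrays. The shuffles with slide removed were still made within groups and took no account of slide, so 28 and 21 are not like for like. The median over the 10 genes became 0.375 with the scanner's log ratio for 162 µg of NRCWE-025 on day 28. Blocked by slide or by scan day it became −0.159 or −0.205 for 18 µg and −0.188 or −0.162 for 162 µg of NRCWE-030 on day 1, and 0.285 or 0.273 for 162 µg on day 28. Leaving out single arrays moved the median across 0 in 3 day 1 comparisons: from −0.16 (without replicate 4 of the treated group) to 0.06 (without control replicate 5) for 162 µg of NRCWE-025, and for 18 and 162 µg of NRCWE-030 from −0.01 and −0.05 (without control replicate 3) to 0.11 and 0.06 (without control replicate 5). The other 9 kept their sign. The cause of these shifts was not tested. Of the other alternative values, 473 for comparisons and 1092 for single genes or pairs were counted as unchanged. For a median this meant a shift under 0.157, whatever its sign, and for a count an equal or similar number. Single genes and pairs kept their call. The sign was also compared for differences, but not for tests over all doses or for pairs called in neither setting. No paired analysis was possible because replicate numbers follow accession order and pair no samples. Slide and scan day were tried as blocks instead, although not every slide held a vehicle array. On day 28 the vehicle lungs were scanned on scan days 2 to 6. Those given 162 µg of NRCWE-025 were scanned on scan days 5, 7, 8 and 11, and only that of scan day 5 shared a slide with vehicle. Differences from vehicle in the main fits are thus partly confounded with slide and scan day. Signal over background limits Cd4, Cd28 and the third Cd8a probe.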
